A study of Mus musculus with 12 samples.

Results

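The 40 interferon-stimulated genes described here were picked by symbol from the 27179 gene identifiers of a read count table, and all 40 were found in it. They were measured by RNA-seq in 12 libraries from 6 mice: bone-marrow-derived dendritic cells, grown for 7 days with 10% fetal calf serum and 10% of an X-63 supernatant containing GM-CSF, the cytokine that drives dendritic cell differentiation, and the exosomes, small vesicles shed by cells, that were collected from the culture medium. There were 4 groups of 3 libraries. Wild-type (WT) mice 33, 42 and 46 each gave a cell and an exosome library, as did mice 151, 152 and 153, whose labelled genotype is Sidt1/Sidt2 double knock-out (DKO). Femurs came from C57Bl/6 mice, and the labels list no treatment in any group and no age. By sex, WT comprised 2 females with 1 male and DKO 3 males. Cell RNA was extracted with Tri-Reagent and vesicle RNA with Trizol LS and a Qiagen kit, so extraction and compartment cannot be told apart.

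Sidt1 and Sidt2 encode membrane proteins related to the worm double-stranded RNA channel SID-1. Sidt2 followed the label, at 169 to 217 CPM (counts per 1000000 counts of the TMM-normalised library size) in WT cells and 0.631 to 1.32 CPM in DKO cells. Sidt1 went against it: WT cells held 3, 0 and 0 Sidt1 counts and the libraries labelled DKO held 594, 1722 and 574 in cells and 483, 440 and 309 in exosomes, against 0, 3 and 4 in WT exosomes. Counts are summed over the whole gene and do not show which exons were read. Libraries are therefore called "labelled DKO" or DKO by their label. Total counts per library ran from 19095284 to 32273898 in WT cells, 9008189 to 31651403 in DKO cells, 8200062 to 22236435 in WT exosomes and 7215083 to 16348101 in DKO exosomes, so that 3 counts correspond to between 0.0837 and 0.437 CPM. The summed level of 10 dendritic cell markers was 2891 to 4383 CPM in the cells, led by the class II gene H2-Ab1, and that of 8 macrophage markers was 1611 to 2073 CPM, so both kinds of transcript were abundant in the cultures.

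Interferons are secreted proteins that warn cells of infection. Type I interferon binds the Ifnar1/Ifnar2 receptor, whose kinases Jak1 and Tyk2 activate a complex, with Stat2 and Irf9 among its parts, that binds interferon-stimulated response elements (ISRE) in target promoters. Interferon gamma signals through a receptor that uses Jak2, and its target promoters hold gamma-activated sites (GAS). The induced genes include sensors and degraders of viral RNA (the Oas family, Eif2ak2, the Ifit family), GTPases that attack viruses and pathogen vacuoles (Mx, Gbp and Irg proteins), membrane restriction factors and the transcription factors that amplify the response. Dendritic cells and macrophages express many of them at a resting level.

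RefSeq promoter windows of 300 bases (250 before and 50 after the annotated start, GRCm38.p6) were found for 31 of the 40 members. A 10-base ISRE-like motif (GAAA, any 2 bases, then GAAA, on either strand) occurred in 20 of these 31 genes (64.5%) against 1079 of 27025 genes with a window (3.99%), and a GAS-like motif, TTCNNNGAA on either strand, in 11 (35.5%) against 2582 (9.55%). The motifs can overlap each other and themselves. A match is only a run of letters, not a measured binding site. The windows below are shown because their genes carry the results that follow: Gbp2, Gbp7 and Irf1 were lower in exosomes than in cells, Irgm1 did not pass the test, and Oas1a, Oas1g and Irf7 were higher. Capitals mark ISRE-like and GAS-like matches, and every window reads 5′ to 3′ on the strand of its gene.
Gbp2, chr3:142620413-142620712, plus strand: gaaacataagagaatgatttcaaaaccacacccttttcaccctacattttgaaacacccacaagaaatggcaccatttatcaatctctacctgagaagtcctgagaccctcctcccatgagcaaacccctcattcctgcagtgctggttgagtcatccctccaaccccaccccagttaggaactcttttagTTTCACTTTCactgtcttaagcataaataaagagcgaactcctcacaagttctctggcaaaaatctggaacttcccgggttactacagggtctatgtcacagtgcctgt
Gbp7, chr3:142530086-142530385, plus strand: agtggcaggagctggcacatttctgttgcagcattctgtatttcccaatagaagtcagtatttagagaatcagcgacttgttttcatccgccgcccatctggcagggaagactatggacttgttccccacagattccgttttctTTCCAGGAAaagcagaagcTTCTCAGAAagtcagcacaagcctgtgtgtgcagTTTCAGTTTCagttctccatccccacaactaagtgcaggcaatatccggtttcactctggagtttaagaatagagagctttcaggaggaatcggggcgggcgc
Irf1, chr11:53769764-53770063, plus strand: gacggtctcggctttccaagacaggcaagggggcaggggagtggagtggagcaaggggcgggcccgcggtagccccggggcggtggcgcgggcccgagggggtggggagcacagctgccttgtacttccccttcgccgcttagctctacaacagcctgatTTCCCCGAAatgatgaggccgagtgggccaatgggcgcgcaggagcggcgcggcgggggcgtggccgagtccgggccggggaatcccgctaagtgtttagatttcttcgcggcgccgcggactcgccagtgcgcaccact
Irgm1, chr11:48871371-48871670, minus strand: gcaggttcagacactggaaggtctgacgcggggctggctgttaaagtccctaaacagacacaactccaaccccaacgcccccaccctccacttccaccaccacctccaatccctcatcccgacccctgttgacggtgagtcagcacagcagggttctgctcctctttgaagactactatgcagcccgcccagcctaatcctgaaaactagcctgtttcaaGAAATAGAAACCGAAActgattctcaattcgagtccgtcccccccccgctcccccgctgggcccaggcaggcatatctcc
Oas1a, chr5:120907476-120907775, minus strand: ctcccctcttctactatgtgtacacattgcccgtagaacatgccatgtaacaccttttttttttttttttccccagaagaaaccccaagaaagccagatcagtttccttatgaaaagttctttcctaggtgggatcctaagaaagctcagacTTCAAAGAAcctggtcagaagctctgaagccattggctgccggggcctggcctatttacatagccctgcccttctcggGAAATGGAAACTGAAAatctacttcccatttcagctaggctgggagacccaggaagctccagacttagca
Oas1g, chr5:120887564-120887863, minus strand: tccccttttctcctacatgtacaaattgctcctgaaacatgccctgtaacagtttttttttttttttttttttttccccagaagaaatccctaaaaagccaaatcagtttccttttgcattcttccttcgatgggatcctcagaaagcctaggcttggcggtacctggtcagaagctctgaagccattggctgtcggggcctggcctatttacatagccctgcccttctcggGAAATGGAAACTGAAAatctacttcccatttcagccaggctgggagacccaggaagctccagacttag
Irf7, chr7:141266375-141266674, minus strand: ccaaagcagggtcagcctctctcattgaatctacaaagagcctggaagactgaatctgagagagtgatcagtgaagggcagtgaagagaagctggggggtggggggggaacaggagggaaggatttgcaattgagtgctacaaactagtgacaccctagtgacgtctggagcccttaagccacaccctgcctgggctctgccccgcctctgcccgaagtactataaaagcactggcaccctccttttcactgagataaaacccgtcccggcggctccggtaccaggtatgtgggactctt

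The Gbp2 window held an ISRE-like match starting at position -59, with the start site as position 0, and the Gbp7 window held an ISRE-like match at -53 and GAS-like matches at -106 and -87. The Irf1 window shown held a GAS-like match alone, at -90, and the other Irf1 window held no match. Irgm1, Oas1a and Oas1g each held a pair of overlapping ISRE-like matches, at -30 and -24, -20 and -14, and -18 and -12, and no match was found in the Irf7 window. Of the members lower in the exosomes of both genotypes, 6 of the 7 with a window had an ISRE-like match and 4 had a GAS-like match. Of the members higher in both, 2 of the 3 with a window, Oas1a and Oas1g, had an ISRE-like match.

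Expressed per kilobase of the deposited gene length, so that genes can be compared, the same 3 membrane proteins led every group. Ifitm3, which blocks fusion of viruses with endosomes, stood at 669 ± 9.84 CPM per kb in WT cells (SD, n = 3), 571 ± 40.5 in DKO cells, 737 ± 196 in WT exosomes and 456 ± 19.0 in DKO exosomes. Bst2 (tetherin), which holds budding virions at the membrane, and Ifitm2, a relative of Ifitm3, followed at 279 to 286 CPM per kb in WT cells, and their libraries overlapped in every group. The 4th place differed between compartments: in cells it was Gbp2, at 99.1 ± 20.1 CPM per kb in WT and 92.4 ± 6.76 in DKO, and in exosomes it was Oas1a, at 41.5 ± 2.48 in WT and 33.6 ± 5.75 in DKO, with Gbp2 7th. The chemokine gene Cxcl9 had at most 3 counts in any library, and the Irg GTPase gene Iigp1 had at most 17; the other 38 members had a mean of at least 1 CPM. The 40 members summed to 2037 to 2215 CPM in WT cells, 1815 to 1991 in DKO cells, 1513 to 1766 in WT exosomes and 1292 to 1484 in DKO exosomes. All exosome libraries of a genotype were below the cell libraries of that genotype in this sum. In bulk RNA, fewer cells of a type and less RNA per cell cannot be told apart, and a vesicle level is a share of vesicle RNA.

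**Figure D1:**
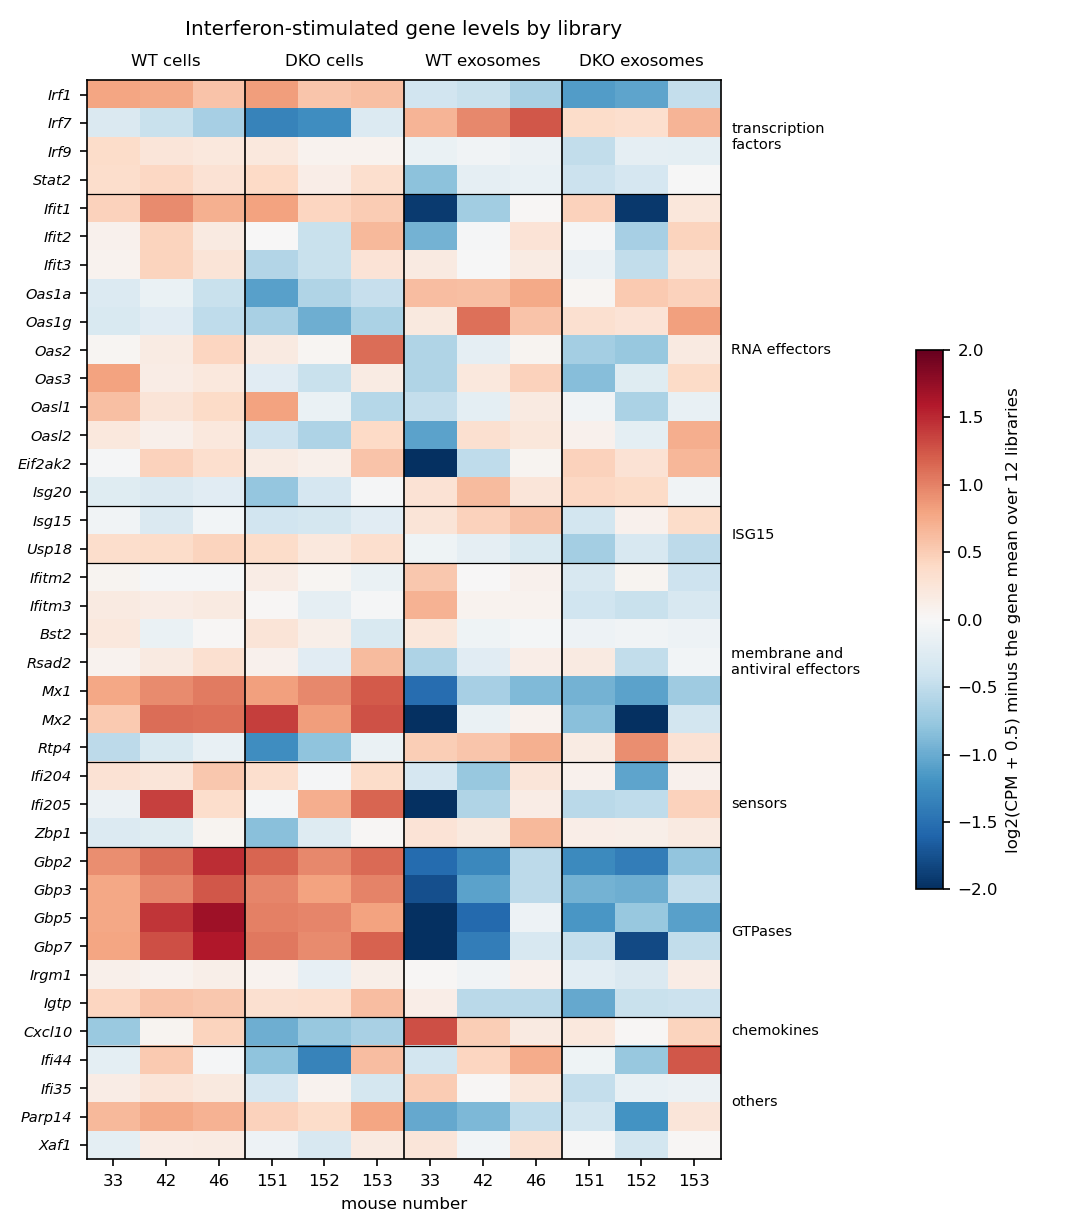
Level of 38 members in each of 12 libraries, as log2(CPM + 0.5) minus the mean of the gene over all libraries (colour, limited to 2 in either direction); columns are mice within the 4 groups and rows are genes grouped by role. The Gbp genes, Mx1 and Irf1 are red in all 6 cell libraries and blue in all 6 exosome libraries, and Irf7, Oas1a and Oas1g show the reverse.

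Comparing exosomes with the cells that released them, the members moved in both directions, with the larger changes downward. In WT mice 16 of the 38 tested members passed an adjusted p of 0.05 in edgeR's quasi-likelihood test (5 higher in exosomes, 11 lower), where 38.3% of all 12829 tested genes did (18.7% higher, 19.6% lower). In DKO mice 18 of 38 passed (5 higher, 13 lower), where 47.5% of 12316 genes did (23.7% higher, 23.7% lower). The shares called were thus near those of all genes. The median log2 fold change of the members was -0.38 in WT and -0.26 in DKO, beside -0.02 and -0.01 over all genes. Levels of the 2 compartments did not overlap for 22 of 38 members in WT (55.4% of all genes) and for 19 in DKO (58.4%). Within single mice, 23 to 26 of the 38 members were lower in exosomes, and the share of all genes was not counted by mouse. In the group fits the estimate was negative for 63.2% of members in WT and 68.4% in DKO, beside 50.7% and 50.6% of all genes.

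Most calls were shared by the genotypes, whose comparisons use separate libraries. Irf7, Oas1a, Oas1g and Rtp4 were higher in the exosomes of both, and Irf1, Stat2, Usp18, Mx1, Gbp2, Gbp3, Gbp5, Gbp7, Igtp and Parp14 were lower in both, which is 87.5% of the WT calls and 77.8% of the DKO calls. In these main fits, of 6 libraries each, Isg15 and Ifit1 were called in WT alone, and Cxcl10, Ifitm3, Irf9 and Mx2 in DKO alone. Under some other settings Irf9 and Mx2 were called in WT and Isg15 in DKO. No difference between the genotypes in these members was detected in the interaction test below. The sign was shared by 30 of 38 members (78.9%), and 18 (47.4%) were called in neither. Over the 12261 genes tested in both genotypes, 84.1% shared the sign, 45.7% were called in neither, and the calls shared in direction were 82.6% of the WT calls and 68.4% of the DKO calls; the members were within 10 percentage points of these shares. The WT count fell to 10 without the cells of mouse 42, the cells of mouse 46 or the exosomes of mouse 42. The share of all genes called fell as well in these fits, from 38.3% to 18.8%, 17.6% and 23.5%. Without both libraries of mouse 42 the count was 0, a fit in which 99 genes in all (0.762%) were called. Scaling by total counts, which moved the median of all genes to -0.39 in WT and -0.14 in DKO, changed the split of the members to 3 higher and 15 lower in WT and 4 higher and 14 lower in DKO; the share of higher genes among all calls went from 48.9% to 21.2% in WT and from 50% to 39.2% in DKO.

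**Figure D2:**
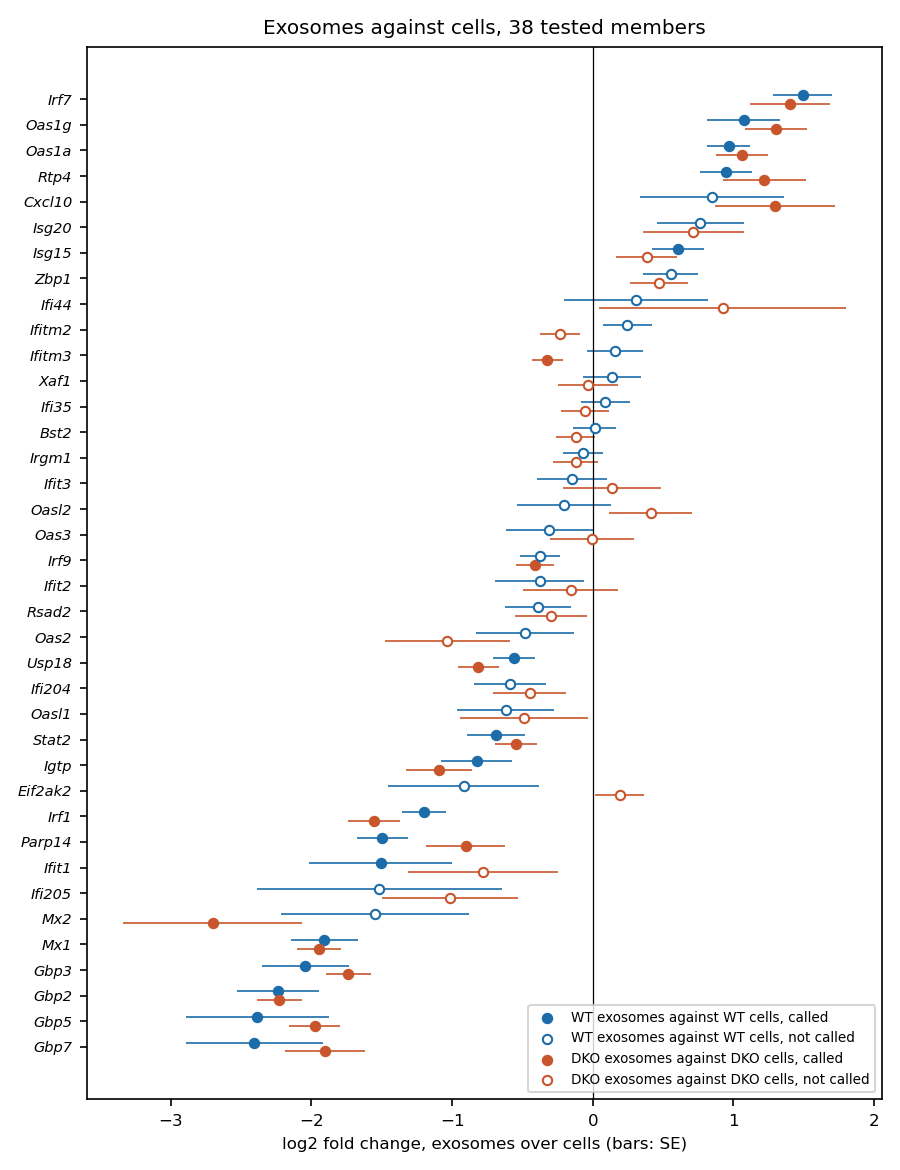
Log2 fold change of exosomes over cells (x axis, bars are SE) for the 38 tested members (y axis) in WT (blue) and DKO (orange) mice; filled points passed an adjusted p of 0.05 and open points did not. The Gbp genes and Mx1 lie between -1.74 and -2.41 in both genotypes, and Irf7, Oas1g, Oas1a and Rtp4 lie between 0.95 and 1.49.

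The guanylate-binding proteins, GTPases induced above all by interferon gamma that coat pathogen vacuoles and drive inflammasome activity, fell in both genotypes. Their 4 genes lie side by side on chromosome 3 (chr3:142496934-142638008). Gbp2 stood at 202, 230 and 298 CPM in the cells of WT mice 33, 42 and 46 and at 36.4, 43.1 and 73.8 in their exosomes. In mice 151, 152 and 153 it was 239, 208 and 234 CPM in cells and 43.9, 40.6 and 61.3 in exosomes. Every exosome library was thus below every cell library by a wide margin, with log2 fold changes of -2.24 ± 0.29 (SE; adjusted p = 0.00205) in WT and -2.23 ± 0.16 (adjusted p = 2.93e-06) in DKO, close to 4.7-fold in each. Gbp7 was 63.8, 90.7 and 113 CPM in WT cells, 6.56, 13.9 and 29.3 in WT exosomes, 77.0, 70.9 and 84.2 in DKO cells and 26.4, 10.2 and 26.1 in DKO exosomes. Its exosome values spread more than those of Gbp2, and its changes were -2.41 ± 0.49 in WT and -1.90 ± 0.28 in DKO.

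Gbp5, which promotes NLRP3 inflammasome assembly, was 29.5, 46.4 and 55.8 CPM in WT cells and 3.79, 5.45 and 15.7 in WT exosomes. In DKO mice it was 34.6, 33.8 and 30.1 CPM in cells and 7.29, 9.88 and 7.71 in exosomes. The groups again did not overlap, and the log2 fold changes were -2.39 ± 0.51 in WT and -1.98 ± 0.18 in DKO. Gbp3 was 70.8, 81.9 and 98.7 CPM in WT cells, 11.95, 19.4 and 28.8 in WT exosomes, 81.5, 72.5 and 83.0 in DKO cells and 21.2, 20.7 and 29.7 in DKO exosomes, a change of -2.04 ± 0.31 and -1.74 ± 0.16. In WT mice the cells and the exosomes of mouse 46 had the highest level of all 4 Gbp genes, and those of mouse 33 the lowest.

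The immunity-related GTPases behaved unevenly. Igtp (Irgm3), an effector against vacuolar parasites, fell by 0.83 ± 0.25 in WT (adjusted p = 0.0344) and 1.09 ± 0.23 in DKO (adjusted p = 0.00292) on the log2 scale. Irgm1, a regulator of autophagy and of the other Irg proteins, ranged from 30.6 to 41.5 CPM over the 12 libraries and did not pass the test in either genotype (-0.07, 95% interval -0.40 to 0.26, in WT and -0.12, -0.47 to 0.23, in DKO). These intervals do not reach the estimates of the Gbp genes. Under total-count scaling, which moved the median of all genes to -0.39 in WT, Irgm1 was called in WT. The Irgm1 window shown above holds ISRE-like matches, as the Gbp2 window does. The WT call for Igtp was lost without any single WT library except the exosomes of mouse 33 (adjusted p = 0.0603 to 0.116) and with the mouse as a block (adjusted p = 0.0679). Igtp shares exon bases with Irgm2 on the same strand, so their reads could not be fully separated.

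Mx1, a dynamin-like GTPase that traps viral nucleocapsids and is a disrupted gene in common laboratory strains, fell about as far as the Gbp genes. It was 68.9, 77.6 and 83.0 CPM in WT cells and 13.6, 25.1 and 21.4 in WT exosomes, and 71.2, 78.3 and 94.6 in DKO cells and 20.5, 18.8 and 24.2 in DKO exosomes. No exosome library reached a cell library, and the log2 fold changes were -1.91 ± 0.24 (adjusted p = 0.00188) and -1.95 ± 0.16 (adjusted p = 6.19e-06). Its neighbour Mx2 was 4.41, 6.91 and 6.81 CPM in WT cells, 0.146, 2.61 and 3.09 in WT exosomes, 8.37, 5.56 and 7.77 in DKO cells and 1.42, 0.0659 and 2.13 in DKO exosomes. A single count stands behind the lowest value of each exosome group. Mx2 was called in DKO (-2.70 ± 0.64, adjusted p = 0.00512) and not in WT (-1.55 ± 0.67, adjusted p = 0.101). RefSeq lists both Mx genes as transcribed pseudogenes in this assembly.

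Among the other membrane-acting and antiviral members, Rtp4, a chaperone of G protein-coupled receptors that also binds RNA, was higher in exosomes. It was 11.1, 12.9 and 14.5 CPM in WT cells and 22.9, 23.8 and 26.6 in WT exosomes, and 6.52, 8.99 and 14.6 in DKO cells and 18.1, 31.1 and 19.8 in DKO exosomes. Exosomes were higher in all 6 mice, with log2 fold changes of 0.95 ± 0.19 (adjusted p = 0.00726) and 1.22 ± 0.30 (adjusted p = 0.00614). The 3 most abundant members had small estimates: Bst2 was within 0.12 of no change in both genotypes and was not called, Ifitm2 was not called at 0.24 in WT and -0.23 in DKO, and Ifitm3 fell by 0.32 ± 0.11 in DKO alone (adjusted p = 0.0320). The Ifitm3 call was lost without the DKO cells or exosomes of mouse 151, the cells of mouse 153 or the exosomes of mouse 152 (adjusted p = 0.0518 to 0.129). It was also lost without both libraries of mouse 151 (adjusted p = 0.196) or mouse 153 (adjusted p = 0.115). The same held without the filter on low counts (adjusted p = 0.0519) and in the fit of all 12 libraries (adjusted p = 0.120). Rsad2 (viperin), which makes a chain-terminating nucleotide, was not called (-0.39 and -0.30) except in WT under total-count scaling. Ifitm2 was called in DKO under total-count scaling and without the exosomes of mouse 152.

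**Figure D3:**
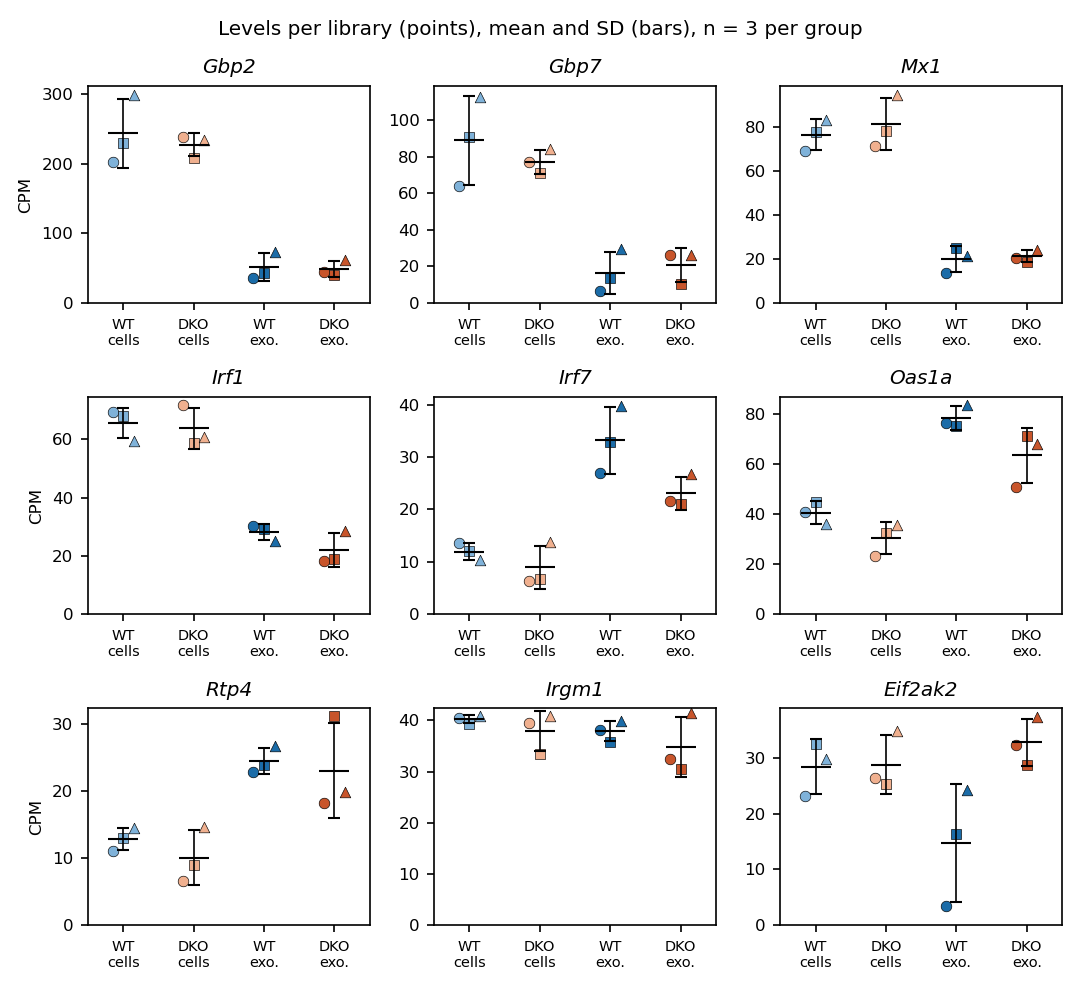
CPM of 9 members in every library (y axes, starting at 0), with the mean and SD of each group of 3 as bars; circles, squares and triangles are the mice of a group in ascending number. Gbp2, Gbp7, Mx1 and Irf1 drop from cells to exosomes without overlap, Irf7, Oas1a and Rtp4 go up, and Irgm1 stays between 30.6 and 41.5 CPM.

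The transcription factors did not move together. Irf7, the factor that amplifies type I interferon production, had the largest increase of the members in both genotypes. It was 13.5, 12.03 and 10.2 CPM in WT cells and 27.0, 32.8 and 39.7 in WT exosomes, and 6.26, 6.74 and 13.7 in DKO cells and 21.6, 21.0 and 26.7 in DKO exosomes. Every exosome library was above every cell library, with log2 fold changes of 1.49 ± 0.21 (adjusted p = 0.00249) and 1.40 ± 0.28 (adjusted p = 0.00199). Irf7 exons overlap those of Phrf1 on the opposite strand, and the sources used here do not say whether the counting used strand. Irf1, the factor most tied to interferon gamma, went the other way, from 58.8 to 71.7 CPM in the 6 cell libraries to 18.1 to 30.3 in the 6 exosome libraries (-1.20 ± 0.16 in WT, -1.56 ± 0.19 in DKO).

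Stat2 and Irf9, partners in the complex that binds ISRE motifs, had smaller negative estimates. Stat2 changed by -0.69 ± 0.21 in WT (adjusted p = 0.0319) and -0.55 ± 0.15 in DKO (adjusted p = 0.0112). Its WT call was lost without any single cell library or the exosomes of mouse 42 (adjusted p = 0.0671 to 0.108), and its DKO call without the cells of mouse 151 (adjusted p = 0.0527). Irf9 stood at -0.37 ± 0.14 in WT, not called in the main fit, and at -0.41 ± 0.14 in DKO (adjusted p = 0.0280). The DKO call was lost without any single DKO cell library or the exosomes of mouse 151 (adjusted p = 0.0552 to 0.110). In WT, Irf9 was called with DESeq2, under total-count scaling and in the fit of all 12 libraries.

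Of the 11 RNA-binding and RNA-degrading effectors, the Oas1 genes were higher in exosomes and most of the others were not called. The Oas enzymes sense double-stranded RNA and make the signal that activates RNase L. Oas1a was 40.7, 44.9 and 36.0 CPM in WT cells and 76.4, 75.0 and 83.7 in WT exosomes, and 23.1, 32.5 and 35.6 in DKO cells and 51.0, 71.1 and 68.1 in DKO exosomes. The compartments were far apart in both genotypes, with log2 fold changes of 0.97 ± 0.15 (adjusted p = 0.00362) and 1.06 ± 0.19 (adjusted p = 0.000885). Oas1g was 10.5, 11.1 and 9.04 CPM in WT cells and 15.01, 28.3 and 19.6 in WT exosomes, and 8.11, 6.34 and 8.18 in DKO cells and 16.4, 15.8 and 23.4 in DKO exosomes (1.07 ± 0.26 and 1.30 ± 0.22). The WT call for Oas1g was lost without any single WT cell library or the exosomes of mouse 42 (adjusted p = 0.0538 to 0.0752) and under total-count scaling (adjusted p = 0.0807). Oas1a and Oas1g are close paralogs, as their promoter windows show, and the counting could have split reads between them.

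The other Oas genes gave no call in the main fits. With the mouse as a block, Oas2 (-0.998 ± 0.362, adjusted p = 0.0326) and Oasl2 (0.426 ± 0.154, adjusted p = 0.0323) were called in DKO. Each moved in the same direction in all 3 of these mice. Oas2 was also called in DKO without the filter on low counts and without the exosomes of mouse 153. In the main fits, Oas2 stood at -0.48 in WT and -1.03 in DKO (adjusted p = 0.0752), Oas3 at -0.31 and -0.01, Oasl1 at -0.62 and -0.49, and Oasl2 at -0.20 and 0.41. Isg20, an exonuclease that degrades single-stranded RNA, stood at 0.76 and 0.71 without passing the main test. It was called in WT with DESeq2 and without the exosomes of mouse 33. Ifit1, which binds viral RNA caps, was 5.90, 8.48 and 7.09 CPM in WT cells and 0.730, 2.36 and 4.22 in WT exosomes, and 7.67, 5.74 and 6.11 in DKO cells and 5.88, 0.725 and 4.92 in DKO exosomes. Its WT call (-1.51 ± 0.51) was at the threshold, with an adjusted p of 0.0490. The call was lost without any WT cell library or the exosomes of mouse 42 (adjusted p = 0.0948 to 0.156). It was also lost with the mouse as a block (adjusted p = 0.0503) and in the fit of all 12 libraries (adjusted p = 0.0502). Ifit2 and Ifit3 stood at -0.38 and -0.15 in WT and -0.16 and 0.14 in DKO.

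Isg15, a ubiquitin-like protein, and Usp18, the protease that removes it from its targets, were called in opposite directions. Isg15 was 14.1, 12.1 and 14.3 CPM in WT cells and 17.8, 20.6 and 22.5 in WT exosomes, and 11.3, 11.5 and 12.5 in DKO cells and 11.3, 15.7 and 19.3 in DKO exosomes. Its WT change was 0.60 ± 0.18 (adjusted p = 0.0344), and the DKO groups overlapped (0.38 ± 0.22, not called). The DKO change was called without the exosomes of mouse 151. The WT call was lost without any WT library except the exosomes of mouse 33 (adjusted p = 0.0716 to 0.151), with the mouse as a block (adjusted p = 0.0750), under total-count scaling (adjusted p = 0.367) and without the filter on low counts (adjusted p = 0.101). Usp18 fell by 0.56 ± 0.15 in WT (adjusted p = 0.0212) and by 0.81 ± 0.14 in DKO (adjusted p = 0.000913). Its WT call was lost without the cells of mouse 42 or 46 or the exosomes of mouse 42 (adjusted p = 0.0648 to 0.0972) and with the mouse as a block (adjusted p = 0.0552).

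The 3 nucleic acid sensors were not called in either genotype in the main fits, and each was called under some other settings. Zbp1, a sensor of Z-form nucleic acid that triggers necroptosis, stood at 0.55 (adjusted p = 0.0564) and 0.47 (adjusted p = 0.0822), and its exosome and cell libraries did not overlap in either genotype. The DNA-binding Ifi204 stood at -0.59 and -0.45, and Ifi205, with 0 counts in the WT exosomes of mouse 33, at -1.52 and -1.01. With the mouse as a block, 4 more members were called in DKO: Zbp1 (adjusted p = 0.0305), Ifi204 (adjusted p = 0.0179), and Oasl2 and Oas2 as given above.

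Cxcl10, a chemokine for activated T cells, was 1.23, 2.49 and 3.43 CPM in WT cells and 6.56, 3.57 and 2.78 in WT exosomes, and 0.969, 1.20 and 1.35 in DKO cells and 2.83, 2.44 and 3.46 in DKO exosomes. The WT groups overlapped and the DKO groups did not, and it was called in DKO (1.29 ± 0.43, adjusted p = 0.0272) and not in WT (0.85 ± 0.51, adjusted p = 0.223). The DKO call was lost without any DKO cell library or the exosomes of mouse 153 (adjusted p = 0.0591 to 0.103), with the mouse as a block (adjusted p = 0.0510), under total-count scaling (adjusted p = 0.0510) and without the filter on low counts (adjusted p = 0.0614). Parp14, a mono-ADP-ribosyltransferase and the longest member at 7251 bases, fell by 1.49 ± 0.18 in WT (adjusted p = 0.00160) and 0.90 ± 0.28 in DKO (adjusted p = 0.0208), the latter lost without the cells of mouse 153 or the exosomes of mouse 151 (adjusted p = 0.0929 and 0.0530). Ifi35, Ifi44 and Xaf1 were not called.

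Other RNA also moved between the compartments. The 10 dendritic cell markers summed to 812 to 1262 CPM in exosomes against 2891 to 4383 in cells, with 9 of 10 lower in each genotype, and the 8 macrophage markers to 781 to 944 against 1611 to 2073, with 7 lower in WT and 8 in DKO. Neutrophil markers summed to 557 to 3633 CPM in WT exosomes, where mouse 33 was highest, 663 to 1439 in DKO exosomes and 977 to 1883 in cells. Siglech, which defines plasmacytoid dendritic cells, had 0 counts in all exosome libraries and at most 6 summed over the WT cells; Irf7 and Bst2 are themselves on the plasmacytoid list. Without these members the list summed to 28.02 to 34.6 CPM in WT cells, 24.6 to 29.9 in DKO cells, 15.2 to 25.9 in WT exosomes and 12.8 to 26.1 in DKO exosomes, led by Tcf4 in 11 of the 12 libraries. T and natural killer cell markers summed to at most 9.32 CPM in any library. The part of these markers in the changes of the members was not tested.

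Gene length moved with the change as well. Across the 38 members, Spearman's rho between deposited length and log2 fold change was -0.576 in WT and -0.374 in DKO, beside -0.375 and -0.268 across all tested genes; genes share libraries and are not independent replicates. The members called higher in WT were 756 to 1993 bases long and those called lower 1771 to 7251; in DKO they were 1101 to 1993 and 648 to 7251, with Ifitm3 the shortest of the lower ones. After subtraction of the median change of similarly long genes, an alternative chosen after seeing the data, Gbp2 stood at -2.18 in WT, Mx1 at -1.85 and Irf7 at 1.28, while Isg15 went from 0.60 to -0.08 and Parp14 from -1.49 to -0.97. The median of the members was then -0.31 in WT and -0.35 in DKO.

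**Figure D4:**
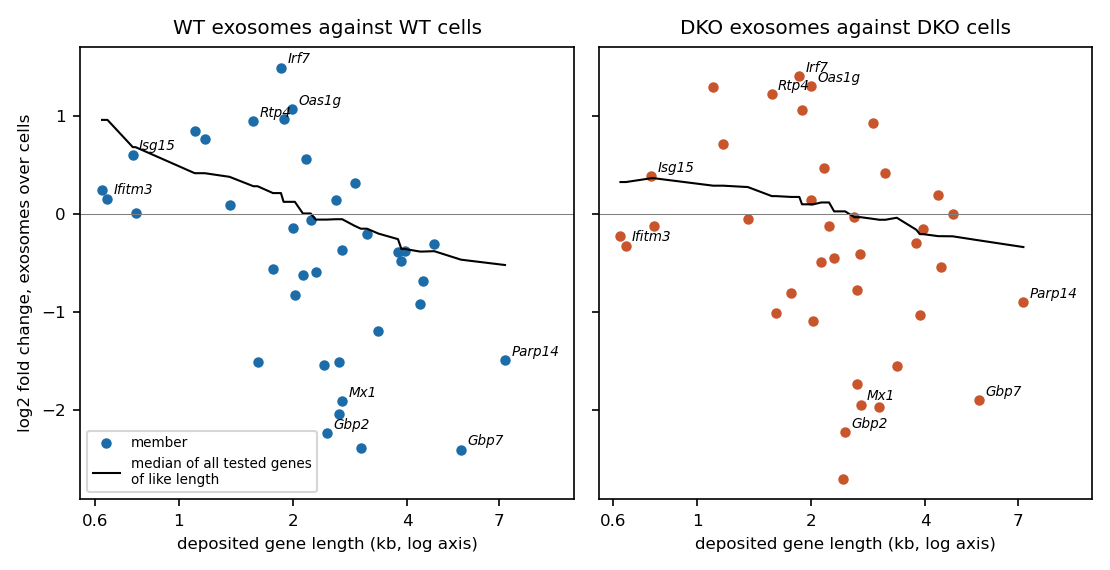
Log2 fold change of exosomes over cells (y axis) against the deposited gene length in kb (log x axis) for the 38 members in WT (left) and DKO (right); the line joins, at each member, the median change of all tested genes of like length. The line falls with length, Isg15 lies close to it in both panels, and Irf7, Gbp2, Gbp7 and Mx1 lie well away from it.

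The design also set DKO against WT, and no member was called. In cells, 0 of 39 tested members passed an adjusted p of 0.05 between DKO and WT with edgeR and 0 with DESeq2. Of all 13106 genes, 0.404% did with edgeR and 1.46% with DESeq2. At an unadjusted p under 0.05 there were 5 members, Oas1a, Oas1g, Oas3, Cxcl10 and Ifi35, against 10.8% of all genes, and all 5 were lower in the libraries labelled DKO. Their log2 fold changes were -0.40, -0.44, -0.59, -1.01 and -0.37, with 95% intervals of -0.76 to -0.04, -0.82 to -0.05, -1.06 to -0.12, -1.91 to -0.11 and -0.67 to -0.07. The estimate was negative for 31 of 39 members (79.5%, beside 51.8% of all genes), with a median of -0.13. The DKO and WT libraries did not overlap for Ifi35, Oas1g, Oas1a and Ifitm3, all lower in DKO (4 of 39, beside 9.03% of all genes). Without the WT cells of mouse 33, 1 member, Gbp5, was called, lower in DKO, in a fit that called 0.918% of all 12967 genes.

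Estimates for the abundant Gbp, Mx1 and Irf1 transcripts in cells are given with their intervals, which were wider for Gbp7 and Gbp5. Gbp2 stood at -0.09 (95% interval -0.40 to 0.22), Gbp3 at -0.07 (-0.37 to 0.22), Mx1 at 0.10 (-0.19 to 0.39) and Irf1 at -0.03 (-0.28 to 0.22). Gbp7 stood at -0.19 (-0.60 to 0.21) and Gbp5 at -0.40 (-0.85 to 0.04). Irf7 was lower in 2 of the 3 DKO cell libraries and as high as in WT in mouse 153, giving -0.44 (-1.05 to 0.17). The 7 B cell markers summed to 94.7 to 185 CPM in WT cells and 44.3 to 69.8 in DKO cells; their part in the differences was not tested.

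In exosomes, 0 of 38 members were called between DKO and WT with edgeR and 0 with DESeq2. Of all 12064 genes, 0.0332% were called with edgeR and 0.274% with DESeq2. Ifitm3, Irf7 and Ifi35 reached an unadjusted p under 0.05 (8.32% of all genes did), all lower in DKO. Ifitm3 showed the clearest separation: 624, 404 and 404 CPM in the WT exosomes of mice 33, 42 and 46 and 293, 285 and 309 in the DKO exosomes of mice 151, 152 and 153, a log2 fold change of -0.70 (95% interval -1.15 to -0.25, adjusted p = 0.552), or -0.44 without mouse 33. The groups did not overlap, and mouse 33 stood far above the other two WT mice. Irf7 stood at -0.54 (-1.03 to -0.04) and Ifi35 at -0.52 (-0.98 to -0.07). Libraries did not overlap for 7 members lower in DKO (6.66% of all genes), which were Ifi35, Irf9, Zbp1, Oas1a, Usp18, Ifitm3 and Irf7, and for 1 that was higher, Eif2ak2 (8.07% of all genes). The median of the members was -0.17, with 26 of 38 negative (68.4%, beside 50.8% of all genes). The cell and exosome comparisons use the same mice, so their values are not separate evidence. Total-count scaling moved the median of all genes to -0.11 in cells and 0.15 in exosomes, and the members' medians to -0.23 in cells and -0.02 in exosomes. A fit with sex as a covariate also called 0 members, where 0.0839% of all genes were called in cells and 0.116% in exosomes. With all DKO mice male, its genotype estimate rests on the only WT male, mouse 46. The part of sex therefore cannot be told from that fit.

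**Figure D5:**
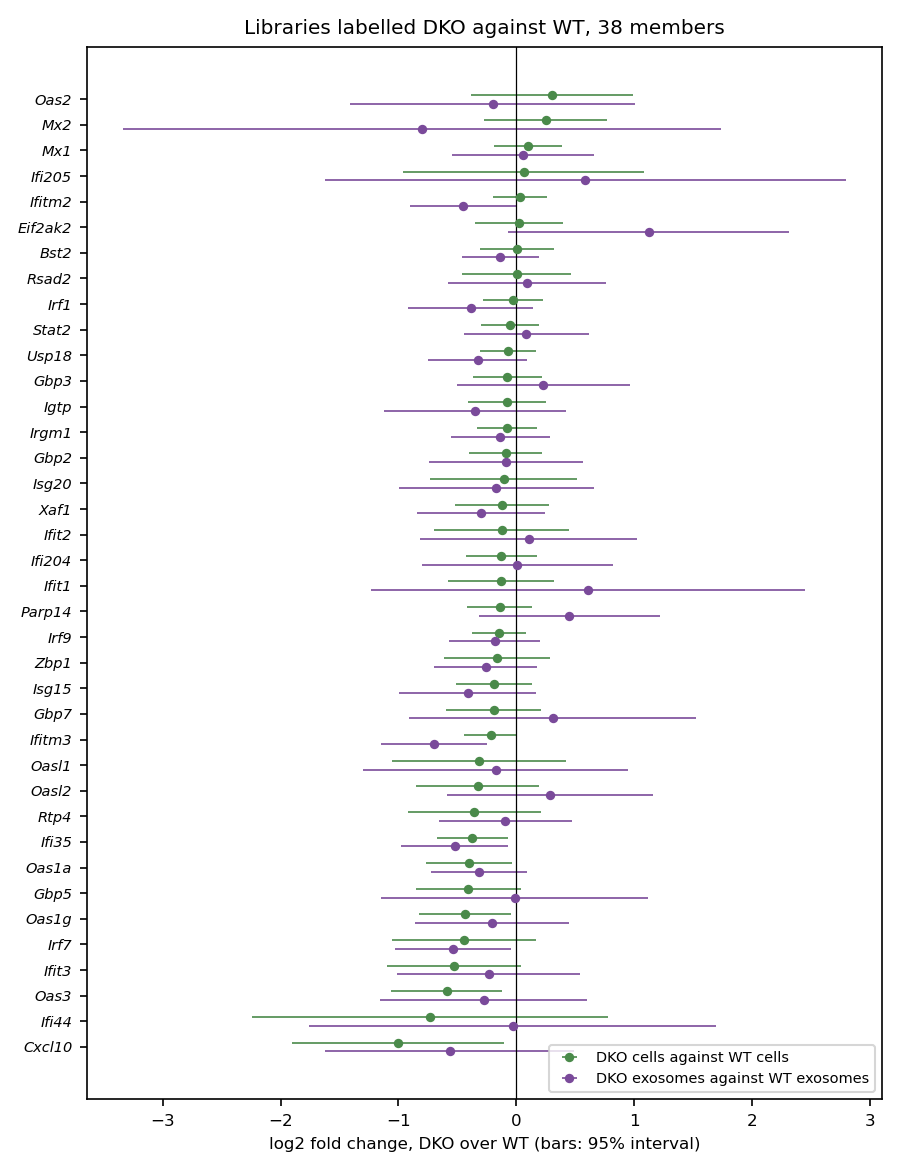
Log2 fold change of libraries labelled DKO over WT (x axis, bars are 95% intervals) in cells (green) and in exosomes (purple) for 38 members (y axis), ordered by the change in cells. None was called. Most points lie left of 0, and the exosome intervals are the wider ones for most members, though not for Irf7 or Zbp1.

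Whether the exosome-to-cell difference depended on genotype was tested by the interaction of compartment and genotype over all 12 libraries. No member passed (0 of 38, 0.0% of all genes; none at an unadjusted p under 0.05, beside 5.98% of all genes; DESeq2 called 0, with 1 at an unadjusted p under 0.05). The Gbp2 interaction was 0.02 (95% interval -0.70 to 0.75) and that of Irf7 -0.08 (-0.90 to 0.74). These intervals are not adjusted for the number of genes tested. They therefore do not mark the smallest difference between genotypes that the test could call. Mx2, called in DKO alone in the main fits, had an interaction of -1.14 (-3.36 to 1.08), and Ifitm3 -0.46 (-0.94 to 0.02). Eif2ak2 (PKR), the kinase that halts translation on double-stranded RNA, had the largest positive estimate, 1.11 (-0.16 to 2.39); it was singled out after its values were seen.

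The other genes of the pathway were counted by list. Of 13 ligand genes, Ifna1, Ifna2, Ifna4, Ifna5, Ifnab, Ifnl2 and Ifnl3 had 0 counts in all libraries, Ifna13, Ifne, Ifng and Ifnk had at most 2 in any library, Ifnb1 had 4 in the WT cells and 7 in the WT exosomes, and only Il27, a cytokine of myeloid cells, had enough counts to be tested. It was not called in WT and was 2.53 ± 0.69 higher in DKO exosomes than in DKO cells (adjusted p = 0.0107), from 16 counts summed over the DKO cells and 76 over the exosomes, and this call was lost without the DKO cells of mouse 152 or 153 (adjusted p = 0.0703 and 0.0509). Of 24 receptors, kinases and signal transducers, 1 was higher and 9 lower in WT exosomes, and 2 were higher and 12 lower in DKO exosomes. These are 41.7% and 58.3% of the list, beside 38.3% and 47.5% of all tested genes. Jak2, a kinase of the interferon gamma receptor, fell by 2.22 ± 0.15 and 2.37 ± 0.16. Ifngr1, the receptor's ligand-binding chain, fell by 1.25 ± 0.14 and 1.09 ± 0.18. Sting1, the adaptor of cytosolic DNA sensing, fell by 1.56 ± 0.20 and 1.72 ± 0.14. These genes are named for their small p and do not stand for the whole list.

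Of 16 negative regulators, 3 were higher and 5 lower in WT, and 6 were higher and 6 lower in DKO. That is 50% and 75% of the list, beside 38.3% and 47.5% of all tested genes. The phosphatase gene Ptpn11 (Shp2) was higher by 1.87 ± 0.34 and 1.36 ± 0.16, and its relative Ptpn2 lower by 0.95 ± 0.18 and 0.83 ± 0.13. Of 73 tested further interferon-stimulated genes, 7 were higher and 25 lower in WT (median -0.42), and 6 were higher and 26 lower in DKO (median -0.32). The share called was 43.8% in each, above the 38.3% of all genes in WT and below the 47.5% in DKO. Epsti1 fell by 1.66 ± 0.14 and 1.77 ± 0.16, and Ccl5, a T cell and monocyte chemokine, by 2.70 ± 0.14 in DKO. None of these pathway genes was called between DKO and WT or in the interaction.

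Within a group, the order of the 3 mice was set beside that of the 12000 genes with a mean of at least 1 CPM. Mouse 153 had the highest value for 25 of the 38 members (65.8%) in DKO cells and for 25 in DKO exosomes, against 33.6% and 30.9% of all genes, and mouse 152 had the lowest for 21 (55.3%) and 23 (60.5%), against 29.2% and 39.3%. In WT exosomes mouse 33 was lowest for 23 members (60.5%, against 45.8%) and mouse 46 highest for 24 (63.2%, against 39.7%). In WT cells mouse 33 was lowest for 22 (57.9%, against 38.7%) and mouse 46 highest for 16 (42.1%, against 28.2%). The summed level, which a few abundant members set, did not follow these orders throughout: among WT exosomes it was highest in mouse 33, at 1766 CPM, and among DKO cells mouse 151, at 1991 CPM, was above mouse 153, at 1981. The genes that went against this order in mouse 33 exosomes were led by the most abundant ones, Ifitm2, Ifitm3 and Bst2, where it was highest. The libraries of mouse 153 were the shallowest of their groups, at 9008189 counts in cells and 7215083 in exosomes, as was the exosome library of mouse 33 at 8200062; the part of depth in these orders was not tested.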

How the data were processed

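The authors deposited raw read counts per gene for 12 libraries, made with featureCounts on mm10, per the submitters' processing notes; the sources used here do not give its version, annotation release or use of strand. The deposited counts were used as they stand, with 12 library files identical to the columns of the series table. Of 27179 identifiers 25275 had a symbol; identifiers without a symbol held 1.06 to 7.88% of the counts and stayed in the tests. Levels are TMM-normalised counts per 1000000 (CPM), computed here. Pairs of groups were fitted on their 6 libraries alone, and the interaction on all 12, with edgeR 4.0.16 (filterByExpr with a minimum count of 10, TMM, robust quasi-likelihood test, Benjamini-Hochberg over all tested genes, called at an adjusted p under 0.05) in R 4.3.3. The code was tested on simulated data. The members and all gene lists were chosen with earlier results of these data known. By a written rule, values in every library are given for the 6 called members with the largest change in each direction of each exosome-to-cell comparison, and other pathway genes are limited to the 4 with the smallest p per list. Cells and exosomes of the same mouse share a number, so the numbers pair the libraries; their deviations from the group means correlated at -0.002 to 0.185, and 5 of 6 matched their own mouse best. Alternatives were DESeq2 1.42.0, its size factors, total-count scaling, other filters, leaving out each library or mouse, the mouse as a block, sex as a covariate and one fit of all 12 libraries. Promoters and gene positions came from the RefSeq tables of GRCm38.p6, the assembly of mm10, and exon overlaps from GENCODE vM21 on the same assembly. Of the members, 14 share exon bases with another gene, 8 of them on the opposite strand (Irf1, Irf7, Oasl1, Eif2ak2, Usp18, Gbp2, Cxcl10 and Ifi35), where reads of the partners cannot be told apart without strand.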

Additional observations from a re-analysis of the deposited data

Results flagged for a closer look

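Eif2ak2 (PKR) moved in opposite directions in the 2 kinds of mice. Its level was 23.1, 32.6 and 29.9 CPM in the cells of WT mice 33, 42 and 46 and 3.497, 16.4 and 24.4 in their exosomes, a log2 difference of -2.56, -0.97 and -0.29. In mice 151, 152 and 153 it was 26.4, 25.3 and 34.9 CPM in cells and 32.4, 28.9 and 37.4 in exosomes, a log2 difference of 0.29, 0.19 and 0.10. The estimated interaction was 1.11 on the log2 scale and did not pass the test (adjusted p = 0.715, unadjusted p = 0.0825), nor did the exosome-to-cell change in either kind of mouse. The WT exosomes of mouse 33 hold the lowest value and are also the library with the highest neutrophil markers, at 3633 CPM summed. That library is also the shallowest of the WT exosomes, at 8200062 counts. The part of either in the Eif2ak2 value was not tested. Eif2ak2 shares exon bases with Gm26637 and n-R5s29 on the opposite strand.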

How the results depend on the processing

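The number of members called in WT exosomes against WT cells ranged from 0 to 19 when 1 library or 1 mouse was left out, against 16. It was 10 without the cells of mouse 42 (18.8% of all genes), the cells of mouse 46 (17.6%) or the exosomes of mouse 42 (23.5%). It was 0 when mouse 42 was dropped altogether; in that fit few genes of any kind were called (99 of 12984), and the 16 members had adjusted p from 0.0590 to 0.340. In DKO the number ranged from 13 to 19, against 18. Without both libraries of mouse 151 the calls of Cxcl10, Stat2, Irf9, Parp14 and Ifitm3 were lost (adjusted p = 0.0899 to 0.238), with 34% of all genes called. Without mouse 153 those of Cxcl10, Irf9 and Ifitm3 were lost (adjusted p = 0.0903 to 0.126), with 31.2% of all genes called. Without mouse 152 the call of Rtp4 was lost (adjusted p = 0.0837), with 41.1% of all genes called. Between DKO and WT cells the number of members called ranged from 0 to 1, the 1 being without the WT cells of mouse 33 (0.918% of all genes). For exosomes and the interaction it was 0 throughout. With the mouse as a replicate block the WT number was 12 (4 higher, 8 lower), the DKO number 21 (6 higher, 15 lower) and the interaction 0. In the WT and DKO block fits 29.9% and 51.2% of all genes were called. The members that lost or gained a call with the block are given above. With DESeq2 the number was 20 in WT (7 higher, 13 lower) and 18 in DKO, beside 44.9% and 48.5% of all genes. Zbp1, Isg20, Irf9 and Mx2 gained a WT call with DESeq2. When each change was set against the median of genes with similar length, an alternative chosen after seeing the data, Isg15 in WT turned from 0.60 to -0.0756, the cause being the high median of short genes. Low counts in the exosomes limit several members, among them Mx2, Ifi205, Ifi44, Ifit1, Oasl1, Oas2 and Cxcl10, and 3 mice per group limit all genotype comparisons.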
